A study of Mus musculus with 108 samples.

Results

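The 6 genes described here encode mouse enzymes that carry a molybdenum cofactor, or the enzyme that finishes that cofactor: the aldehyde oxidase genes Aox1, Aox3 and Aox4, the xanthine dehydrogenase gene Xdh, the molybdenum cofactor sulfurase gene Mocos and the sulfite oxidase gene Suox. They were taken by name from the array annotation and are 6 of the 18193 genes with a probe set of their own, a probe set being the group of short probes that reports 1 transcript. Each of the 6 had exactly 1 such probe set, so no choice between probe sets was needed. Aox1, Aox3 and Aox4 lie side by side on chromosome 1, Suox lies on chromosome 10, Xdh on chromosome 17 and Mocos on chromosome 18. Another aldehyde oxidase gene of the same cluster, Aox2, had no single-gene probe set and was not analysed here.

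Expression had been measured on Affymetrix arrays, 3 for each tissue of each of 6 inbred strains of mouse: C57BL/6J, A/J, AKR/J, 129S2, C3HeB/FeJ and DBA2/J. The 6 tissues were liver, lung, testis, brain, kidney and heart, which makes 18 arrays a tissue. All animals were males of 11 to 14 weeks, and the labels name no treatment, so strain was the only planned difference within a tissue, and neither females nor other ages were sampled. The 129S2 mice came from another supplier than the other 5 strains. The labels name single animals, although the labelling protocol speaks of pools, and p-values below measure the spread between the 3 arrays of a group.

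Aldehyde oxidases oxidise aldehydes, retinaldehyde among them, and ring-nitrogen compounds, which makes them drug-metabolising enzymes of the liver and lung. Xanthine dehydrogenase is a relative of the aldehyde oxidases and carries out the steps of purine breakdown from hypoxanthine through xanthine to uric acid. Both kinds of enzyme need a sulfur atom that Mocos adds to their cofactor, whereas sulfite oxidase, which turns sulfite from cysteine breakdown into sulfate in mitochondria, uses the cofactor without that step. DBA/2 mice have been described as deficient in the Aox3 and Aox4 proteins.

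All values are log2 signals after RMA, the robust multi-array average, as the authors deposited them, so a difference of 1 is a doubling of signal. Within each tissue the 6 strain means were compared with limma's moderated F test, Benjamini-Hochberg adjusted over all 18193 genes, and a gene passed at an adjusted p under 0.05. The 15 strain pairs were tested in the same fit and adjusted over all genes and pairs of the tissue. Fold changes and differences are the higher strain over or minus the lower strain. Levels are not compared between genes or between tissues. On 18 of 18 arrays of every tissue the marker genes of the labelled tissue were the highest of the 6 tissue lists. In brain, 129S2 array 2 and AKR/J array 2 correlated best with each other (over genes, after centring), and in heart 129S2 array 3 correlated best with a C57BL/6J array; every other array correlated best with 1 of its own strain. In lung, C3HeB/FeJ array 3 stood apart by markers of muscle and fat, described with Aox4. In brain, leaving out both unlike arrays left 3 of the 6 genes passing, as with them. Strain differences were common: 31.6% of all genes passed in liver, 32.5% in lung, 40.5% in testis, 23.1% in brain, 46.1% in kidney and 21.0% in heart.

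Against those shares, 4 of the 6 genes passed in liver, 4 in lung, 4 in testis, 3 in brain, 5 in kidney and 2 in heart. The genes were chosen with earlier results of these data known, so the counts here only describe these 6 genes. Xdh passed in 6 of 6 tissues, Aox3 in 5, Aox1 in 4, Suox in 3, and Aox4 and Mocos in 2 each. Of the 90 strain pairs of the 6 genes in each tissue, 32 passed in liver against 11.7% of all gene-by-pair tests, 24 in lung against 11.4%, 29 in testis against 15.8%, 17 in brain against 7.16%, 26 in kidney against 18.5% and 13 in heart against 6.59%. Xdh and Aox3 held 59 and 30 of those called pairs. The median distance between the highest and the lowest strain mean was 0.73 (log2) over the 6 genes in lung, against 0.26 over all genes, and 0.44 in liver, against 0.26. The lung median rested on the C3HeB/FeJ array 3, and without that array it was 0.39. The map of strain means shows the widest departures for Aox3 and Xdh and smaller ones for Mocos and Suox.

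**Figure D1:**
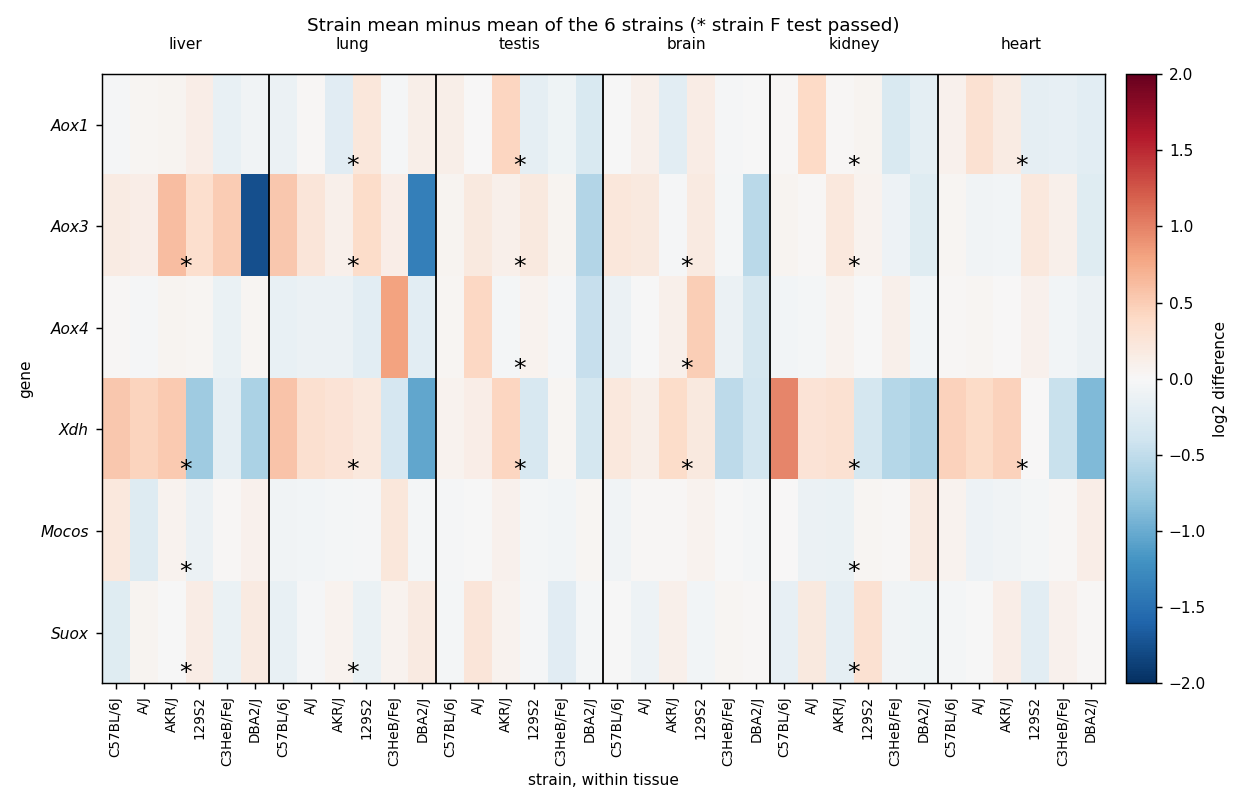
Each cell is a strain mean minus the mean of the 6 strain means of that gene in that tissue (log2, n = 3 arrays a strain); red is higher, blue is lower, and a star marks a strain F test with an adjusted p under 0.05. DBA2/J is the lowest cell of Aox3 in all 6 tissues, and the darkest cells are Aox3 of DBA2/J in liver and lung.

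Aox3 and Aox4 are neighbours that were both lowest in DBA2/J in brain and testis, although in liver Aox4 was not. In testis Aox1 was lowest in DBA2/J too, but its stretch is not printed. The 250 bases before the annotated starts of Aox3 and Aox4 are shown, from RefSeq in build GRCm38.p6 (C57BL/6J sequence). They read 5′ to 3′ on the plus strand with each CG pair in capitals. Aox3 is chr1:58112886-58113135 and Aox4 is chr1:58210147-58210396.
Aox3: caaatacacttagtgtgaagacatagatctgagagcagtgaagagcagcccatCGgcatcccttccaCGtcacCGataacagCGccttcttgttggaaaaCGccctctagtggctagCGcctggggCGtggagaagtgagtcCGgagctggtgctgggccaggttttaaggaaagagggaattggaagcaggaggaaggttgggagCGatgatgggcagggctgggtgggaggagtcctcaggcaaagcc
Aox4: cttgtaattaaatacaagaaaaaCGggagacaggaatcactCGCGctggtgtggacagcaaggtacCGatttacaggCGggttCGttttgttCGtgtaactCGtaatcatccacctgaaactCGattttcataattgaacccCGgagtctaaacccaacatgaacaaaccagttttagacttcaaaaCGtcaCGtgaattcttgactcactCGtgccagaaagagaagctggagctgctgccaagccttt
The Aox3 stretch holds 9 CG pairs and has a GC content of 56.4%, and the Aox4 stretch holds 13 CG pairs and has a GC content of 44.8%, against medians of 6 CG pairs and 52.4% over 32851 mouse promoters of the same length. The TATA box TATAAA and its variant TTTAAA, the CAAT box CCAAT, the GC box GGGCGG, the E box CACGTG and the nuclear receptor core TGACCT were searched on both strands, and no overlap was found in the 2 stretches. The Aox3 stretch holds CCAAT on the minus strand, printed above as attgg from 70 bases before the start. On either strand 33.8% of all these promoters hold CCAAT. The Aox4 stretch holds CACGTG, 60 bases before the start, as do 6.02%. The other motifs of the 6 did not occur in either stretch. Of the 6 genes, 4 were matched in the promoter table, and the sequences of the other 5 strains at these positions were not analysed here.

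Aox3, an aldehyde oxidase known from mouse liver, had its lowest strain mean in DBA2/J in all 6 tissues. Of its 30 strain pairs, DBA2/J was the lower strain in 22 that passed and the higher strain in none that passed. The largest difference lay in liver, where the 3 AKR/J arrays read 12.93, 12.94 and 13.01 (log2). The C3HeB/FeJ livers read 12.81, 12.83 and 12.87, and the 129S2 livers 12.61, 12.61 and 12.81. These 3 strains formed the upper end of the order. The AKR/J arrays lay above every other liver array, although the pair of AKR/J and C3HeB/FeJ did not pass (adjusted p = 0.318). The C57BL/6J livers read 12.45, 12.51 and 12.55, and the A/J livers 12.42, 12.43 and 12.55. The DBA2/J livers read 10.57, 10.57 and 10.61, below every other liver array. AKR/J and A/J, the highest and lowest of the other 5 strains, differed by 0.49, and no array of these strains came near the DBA2/J values.

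The AKR/J mean of 12.96 ± 0.0466 and the DBA2/J mean of 10.58 ± 0.0243 (SD, n = 3 each) gave a 5.21-fold difference in liver Aox3 signal (log2 difference 2.38, 95% confidence interval 2.24 to 2.52, adjusted p of the F test = 8.17e-14). The step between A/J and DBA2/J, neighbours at the low end of the order, was 1.89 (adjusted p = 1.65e-12). No other step between neighbours passed: C3HeB/FeJ and 129S2 differed by 0.16 (adjusted p = 0.144) and 129S2 and C57BL/6J by 0.17 (adjusted p = 0.117). In these bulk tissues fewer cells of a type and less RNA per cell cannot be told apart. Whether a sequence difference between strains under the probes shifted the signal was not tested.

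Lung Aox3 showed the same strain at the low end. The C57BL/6J lungs read 11.34, 11.43 and 11.52, and the 129S2 lungs 11.21, 11.24 and 11.34. The A/J lungs read 11.05, 11.12 and 11.20, the C3HeB/FeJ lungs 10.76, 11.12 and 11.17, and the AKR/J lungs 10.88, 10.97 and 11.10. The DBA2/J lungs read 9.35, 9.40 and 9.84, again below every other array of the tissue. Mean signal was 3.73-fold higher in C57BL/6J (11.43 ± 0.0866) than in DBA2/J (9.53 ± 0.267; SD, n = 3 each; adjusted p of the F test = 8.22e-08), and the step between AKR/J and DBA2/J was 1.46 (adjusted p = 6.76e-07). Among the other 5 strains neighbours differed by 0.17 or less, with no step that passed. Leaving out any 1 lung array, C3HeB/FeJ array 3 included, gave a distance between highest and lowest strain of 1.81 to 2.05, and the test passed each time.

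In testis Aox3 averaged 8.59 ± 0.0837 in A/J, 8.58 ± 0.12 in 129S2, 8.49 ± 0.21 in AKR/J, 8.44 ± 0.162 in C57BL/6J, 8.44 ± 0.0661 in C3HeB/FeJ and 7.80 ± 0.167 in DBA2/J (SD, n = 3 each). The DBA2/J testes read 7.69, 7.71 and 7.99, and the lowest array of any other strain, from AKR/J, read 8.25. The groups did not overlap, and DBA2/J differed from each of the other 5 strains, the nearest being C3HeB/FeJ at 0.64 (adjusted p = 0.000305). In brain Aox3 averaged 4.84 ± 0.00664 in C57BL/6J, 4.81 ± 0.112 in A/J, 4.80 ± 0.029 in 129S2, 4.59 ± 0.139 in AKR/J, 4.58 ± 0.189 in C3HeB/FeJ and 4.09 ± 0.151 in DBA2/J. The brain F test passed (adjusted p = 7.67e-05), and the DBA2/J arrays, at 3.92, 4.13 and 4.21, lay below the lowest other array at 4.43.

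In kidney and heart DBA2/J again had the lowest Aox3 mean, with smaller steps. The highest and lowest kidney means were 4.40 ± 0.0731 in AKR/J and 3.96 ± 0.152 in DBA2/J (SD, n = 3 each), with an F test that passed at an adjusted p of 0.0231 and was lost without AKR/J array 1, AKR/J array 2 or DBA2/J array 2 (adjusted p = 0.0541, 0.0575 and 0.0806). Those in heart were 4.11 ± 0.346 in 129S2 and 3.67 ± 0.0919 in DBA2/J and did not pass (adjusted p = 0.264); without 129S2 array 3 the heart test passed (adjusted p = 0.0377). DBA2/J overlapped other strains in both tissues. Signals at these log2 values were not tested against background.

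**Figure D2:**
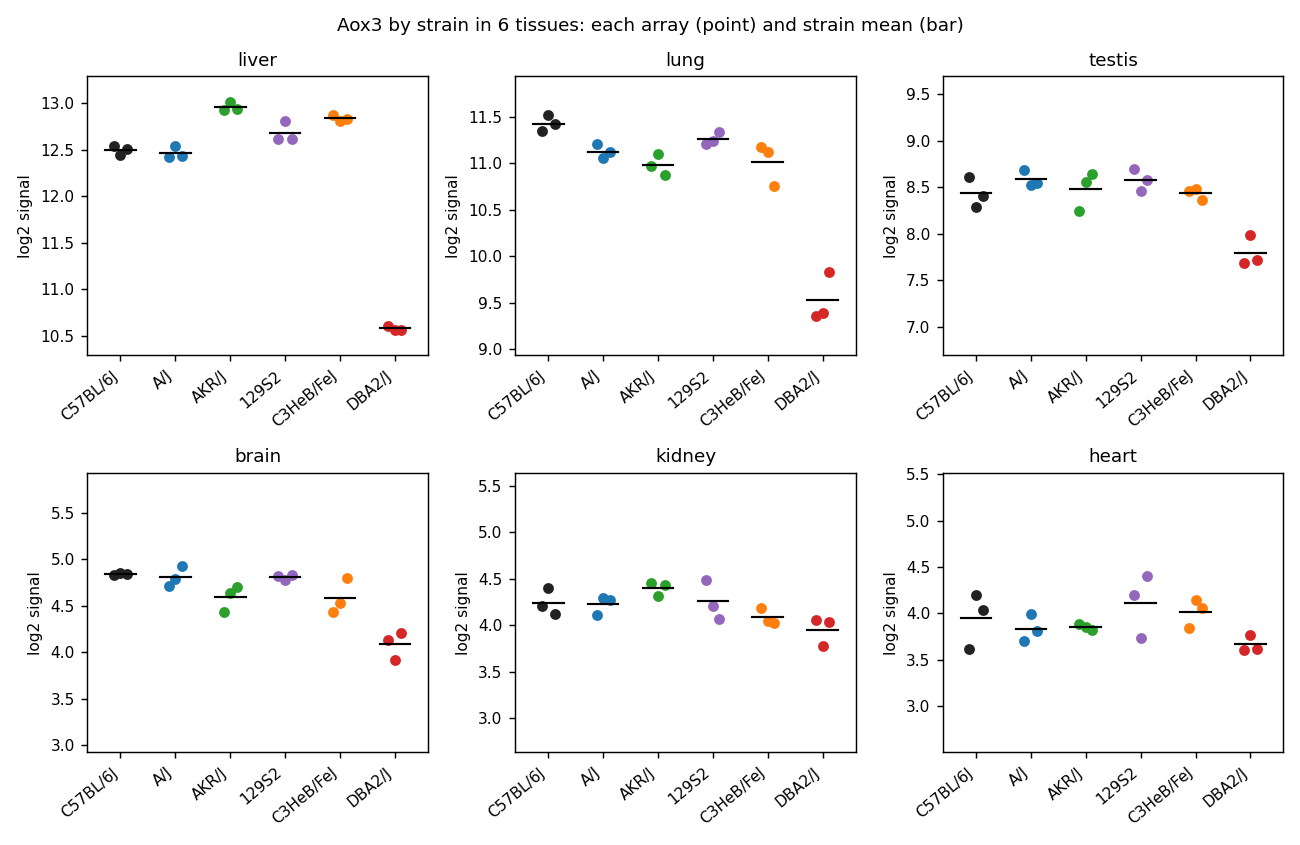
Aox3 log2 signal on every array (points) and the strain mean (bar), in 1 panel for each tissue with its own axis. In liver the 3 DBA2/J points lie between 10.57 and 10.61 and the other 15 between 12.42 and 13.01; in lung, testis and brain the DBA2/J points also lie below all others.

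Aox1, the neighbouring aldehyde oxidase, passed in lung, testis, kidney and heart but not in liver, and its order of strains was another in each tissue. Liver Aox1 averaged 10.16 ± 0.0736 in 129S2, 10.09 ± 0.187 in AKR/J, 10.07 ± 0.108 in A/J, 10.00 ± 0.01 in C57BL/6J, 9.96 ± 0.193 in DBA2/J and 9.89 ± 0.0683 in C3HeB/FeJ (SD, n = 3 each; adjusted p of the F test = 0.254). In lung DBA2/J was near the top: the 129S2 lungs read 10.31, 10.49 and 10.52, the DBA2/J lungs 10.28, 10.33 and 10.40, and the AKR/J lungs, the lowest strain, 9.86, 10.01 and 10.11. The lung difference between 129S2 and AKR/J was 0.45 (adjusted p of the F test = 0.00186), and 6 strain pairs passed. Brain Aox1 lay between 6.77 ± 0.19 in 129S2 and 6.41 ± 0.146 in AKR/J and did not pass (adjusted p = 0.116), except without 129S2 array 2 (adjusted p = 0.0283).

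In testis Aox1 was highest in AKR/J and lowest in DBA2/J. The AKR/J testes read between 6.85 and 7.34, the C57BL/6J testes 6.68, 6.68 and 6.91, and the A/J testes 6.48, 6.62 and 6.83. The C3HeB/FeJ testes read 6.48, 6.58 and 6.58, the 129S2 testes 6.27, 6.54 and 6.56, and the DBA2/J testes 6.26, 6.28 and 6.41. AKR/J overlapped C57BL/6J and the pair did not pass (adjusted p = 0.084), while it lay above DBA2/J by 0.74 (1.68-fold; adjusted p of the F test = 0.000712). The mean of 5 measured Leydig cell markers, of 6 listed, was 10.66 in AKR/J testes (range 10.60 to 10.69) and between 9.65 and 10.02 in the means of the other strains; their part in the result was not tested.

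Kidney Aox1 averaged 5.04 ± 0.249 in A/J, above every other array, against 4.33 ± 0.235 in C3HeB/FeJ (SD, n = 3 each; difference 0.71, adjusted p = 0.00641). Its mean over all kidney arrays was 4.63, and signals this low were not tested against background. Heart Aox1 averaged 8.71 ± 0.0629 in A/J, 8.56 ± 0.0764 in AKR/J, 8.49 ± 0.111 in C57BL/6J, 8.24 ± 0.372 in C3HeB/FeJ, 8.22 ± 0.163 in 129S2 and 8.20 ± 0.192 in DBA2/J. The heart F test was close to the threshold (adjusted p = 0.0440) and was lost without any 1 of 14 of the 18 heart arrays, with adjusted p-values up to 0.105.

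Aox4, an aldehyde oxidase known from the Harderian gland and skin of mice, had a mean log2 signal under 6 in all 6 tissues. Its clearest strain difference lay in testis, where the A/J arrays read 4.76, 4.81 and 5.07, the 129S2 arrays 4.43, 4.48 and 4.68, and the C57BL/6J arrays 4.31, 4.58 and 4.61. The C3HeB/FeJ testes read 4.41, 4.43 and 4.49, the AKR/J testes 4.35, 4.45 and 4.49, and the DBA2/J testes 3.88, 3.99 and 4.12. A/J lay above all other arrays and DBA2/J below all others, a 1.85-fold difference between their means (log2 difference 0.88, adjusted p of the F test = 2.74e-05). The step between A/J and 129S2 (0.35, adjusted p = 0.0149) and that between AKR/J and DBA2/J (0.43, adjusted p = 0.00333) passed, and the 4 strains between them did not pass against their neighbours. The mean of 6 measured epididymis markers, of 7 listed, also differed between testes, at 6.26 in A/J (range 5.67 to 6.78), 5.91 in AKR/J and 5.15 to 5.64 in the other strains, with DBA2/J at 5.58; their part in the result was not tested.

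Brain Aox4 averaged 5.10 ± 0.419 in 129S2 and 4.26 ± 0.0934 in DBA2/J (SD, n = 3 each; difference 0.84, adjusted p of the F test = 0.0121). The 129S2 brains read 4.64, 5.20 and 5.46, so that the lowest of them fell within the range of AKR/J and A/J, and the call was lost without 129S2 array 3 (adjusted p = 0.0532). In lung the widest distance between strain means, 1.02, rested on 1 array: C3HeB/FeJ array 3 read 6.75, against 3.84 and 3.78 on the other C3HeB/FeJ arrays and 3.59 to 3.97 elsewhere (adjusted p of the F test = 0.467). That lung array also had skeletal muscle markers at 9.59 against 6.38 on the next highest lung array (7 of 7 measured), adipose markers at 9.78 against 8.56 (5 of 7 measured) and heart markers at 12.47 against 11.32 (7 of 7 measured); their part in the result was not tested. Liver, kidney and heart Aox4 did not pass (adjusted p = 0.804, 0.514 and 0.566).

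The genes next to the cluster were set beside it for DBA2/J. DBA2/J minus the mean of the other 5 strains was −2.11 for Aox3 in liver, where it was −0.08 for Aox1 and 0.05 for Aox4. In lung it was −1.64 for Aox3, 0.14 for Aox1 and −0.25 for Aox4. In testis all 3 differences were negative, at −0.71 for Aox3, −0.56 for Aox4 and −0.37 for Aox1. Of the 10 tested genes outside the cluster, 5 on either side, none had a DBA2/J value as low as Aox3 had in brain, liver, lung or testis. Higher DBA2/J signals were found on the Aox4 side for Ppil3 in testis, at 8.81 in DBA2/J and 8.14 in the other strains (difference 0.66), and for Nif3l1 in testis, at 7.85 in DBA2/J and 7.21 in the other strains (0.64). Nif3l1 was called higher in DBA2/J in 5 of 5 pairs in brain, heart and testis. On the Aox1 side Tyw5 was at 8.82 in DBA2/J livers and 8.13 in the other strains (0.69).

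**Figure D3:**
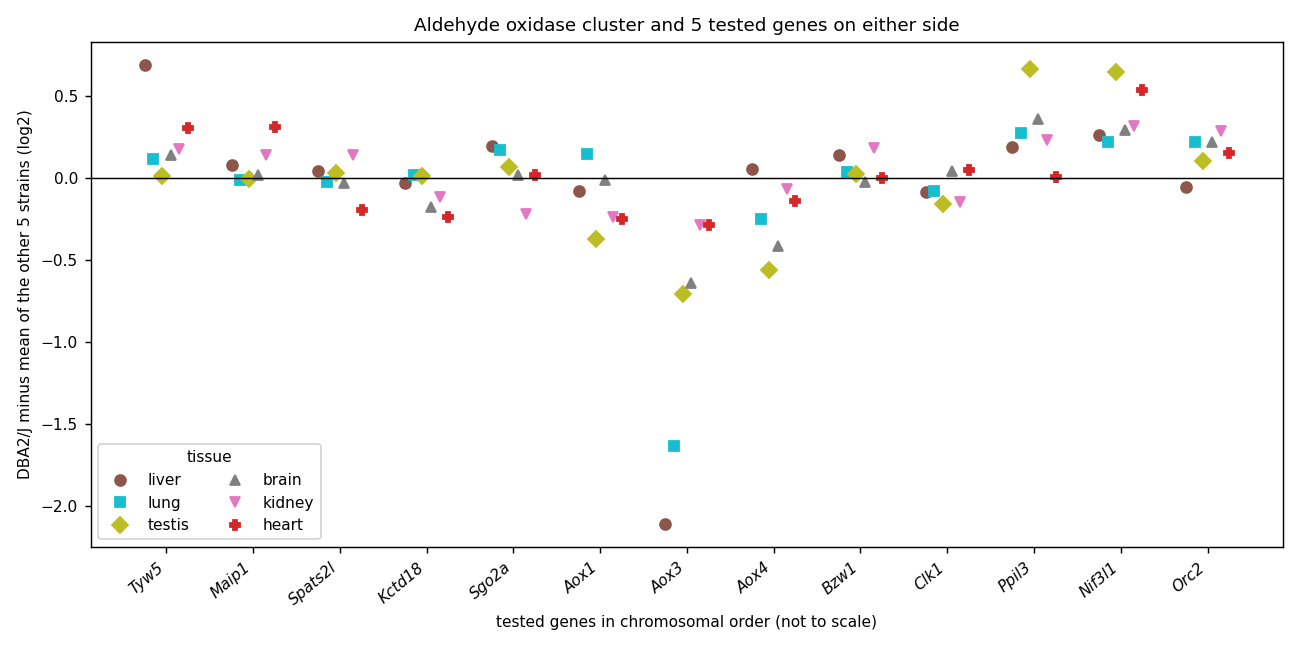
DBA2/J mean minus the mean of the other 5 strains (log2) for Aox1, Aox3, Aox4 and the 5 tested genes on either side, in chromosomal order and not to scale, with 1 symbol for each tissue. Aox3 in liver (−2.11) and lung (−1.64) lie far below all other points; Ppil3 and Nif3l1 in testis and Tyw5 in liver lie above 0.60.

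Xdh, the xanthine dehydrogenase gene, was the member with the broadest strain pattern and passed in all 6 tissues. C57BL/6J, AKR/J and A/J were the upper strains, being the higher strain of a called pair 17, 17 and 14 times in 30 pairs each. Of its 30 pairs, DBA2/J was the lower strain in 24 that passed and the higher strain in none that passed. Among called pairs C3HeB/FeJ was lower in 19 and higher in 5, and 129S2 was lower in 13 and higher in 6. The strain at the bottom differed: it was DBA2/J in heart, kidney, lung and testis, 129S2 in liver and C3HeB/FeJ in brain.

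In C57BL/6J lung Xdh read 11.18, 11.22 and 11.51. A/J lungs read 10.95, 11.10 and 11.15, against 10.96, 10.97 and 11.11 in AKR/J. The 129S2 lungs were spread widely at 10.58, 10.90 and 11.37. The C3HeB/FeJ lungs read 10.40, 10.40 and 10.44, and the DBA2/J lungs 9.58, 9.70 and 9.83. The last 2 groups overlapped neither each other nor any other strain, and 129S2 overlapped each of the 3 strains above it. C57BL/6J lay 3.04-fold above DBA2/J (log2 difference 1.60, 95% confidence interval 1.30 to 1.91, adjusted p of the F test = 3.81e-06). The step between 129S2 and C3HeB/FeJ was 0.54 (adjusted p = 0.0238) and that between C3HeB/FeJ and DBA2/J was 0.71 (adjusted p = 0.00394). Leaving out any 1 lung array gave an adjusted p of the F test of at most 4.76e-05.

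Heart Xdh averaged 8.42 ± 0.0192 in AKR/J, 8.41 ± 0.139 in C57BL/6J, 8.34 ± 0.122 in A/J, 7.97 ± 0.144 in 129S2, 7.52 ± 0.0601 in C3HeB/FeJ and 7.08 ± 0.111 in DBA2/J (SD, n = 3 each). The heart means fell on 4 levels: pairs of the top 3 strains did not pass, and every step below them passed, at 0.37 from A/J to 129S2 (adjusted p = 0.0215), 0.45 from 129S2 to C3HeB/FeJ (0.00577) and 0.44 from C3HeB/FeJ to DBA2/J (0.007). The AKR/J to DBA2/J difference was 2.53-fold (adjusted p of the F test = 1.8e-08), and 12 of 15 pairs passed. Xdh is known from capillary endothelium, and the mean of 7 of 7 measured endothelial markers in heart was 8.86 in C3HeB/FeJ, 8.72 in DBA2/J, 8.64 in AKR/J and 8.51 to 8.52 in the other 3 strains. In lung it was 11.58 in DBA2/J and 11.51 to 11.66 in the other strains. Their part in the result was not tested.

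Kidney Xdh stood out by C57BL/6J, whose arrays at 8.06, 8.08 and 8.11 lay above all others. AKR/J kidneys read 7.35, 7.35 and 7.53 and A/J kidneys 7.28, 7.32 and 7.55, and these 2 strains overlapped. The 129S2 kidneys read 6.63, 6.68 and 6.97, the C3HeB/FeJ kidneys 6.29, 6.49 and 6.81, and the DBA2/J kidneys 6.27, 6.45 and 6.73. The low 3 strains overlapped and did not pass against their neighbours. C57BL/6J exceeded AKR/J by 0.68 (adjusted p = 0.000905) and DBA2/J by 1.60 (3.03-fold; adjusted p of the F test = 5.1e-08), and A/J exceeded 129S2 by 0.63 (adjusted p = 0.00179). The C57BL/6J kidneys came from animals numbered 10, 11 and 12, as did the livers and testes, whereas the brains, hearts and lungs came from animals 2, 3 and 4; whether the animal set had a part in the result was not tested. Endothelial markers in kidney averaged 7.85 in C57BL/6J and 7.62 to 7.79 in the other strains; their part in the result was not tested.

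Liver Xdh formed an upper group of C57BL/6J, AKR/J and A/J and a lower pair of DBA2/J and 129S2, with C3HeB/FeJ between them. C57BL/6J averaged 9.54 ± 0.145, AKR/J 9.53 ± 0.0303 and A/J 9.44 ± 0.089, and C3HeB/FeJ averaged 8.82 ± 0.165, DBA2/J 8.38 ± 0.143 and 129S2 8.30 ± 0.199 (SD, n = 3 each). The step of 0.62 from A/J to C3HeB/FeJ passed (adjusted p = 0.000647), as did the 0.45 from C3HeB/FeJ to DBA2/J (0.00955). Between C57BL/6J and 129S2 the difference was 2.37-fold (adjusted p of the F test = 2.12e-08). Thus 129S2 was among the low strains in liver, whereas in lung it did not pass against AKR/J (0.06 lower, adjusted p = 0.866).

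Brain Xdh averaged 6.40 ± 0.0453 in AKR/J, 6.25 ± 0.163 in C57BL/6J, 6.23 ± 0.403 in 129S2, 6.16 ± 0.155 in A/J, 5.67 ± 0.214 in DBA2/J and 5.51 ± 0.12 in C3HeB/FeJ (SD, n = 3 each; highest over lowest 1.86-fold, adjusted p = 0.00119). No step between neighbours passed, the widest being 0.49 between A/J and DBA2/J (adjusted p = 0.063). Testis Xdh averaged 6.21 ± 0.219 in AKR/J, 5.90 ± 0.0698 in A/J, 5.85 ± 0.12 in C57BL/6J, 5.81 ± 0.154 in C3HeB/FeJ, 5.46 ± 0.0749 in 129S2 and 5.42 ± 0.25 in DBA2/J (1.73-fold, adjusted p = 0.000234). As with Aox1, AKR/J testes were the highest, with 3 arrays at 5.99 or above, and the Leydig cell markers given above were highest in the same strain. The mean of Xdh over all testis arrays was 5.77, and signals this low were not tested against background.

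**Figure D4:**
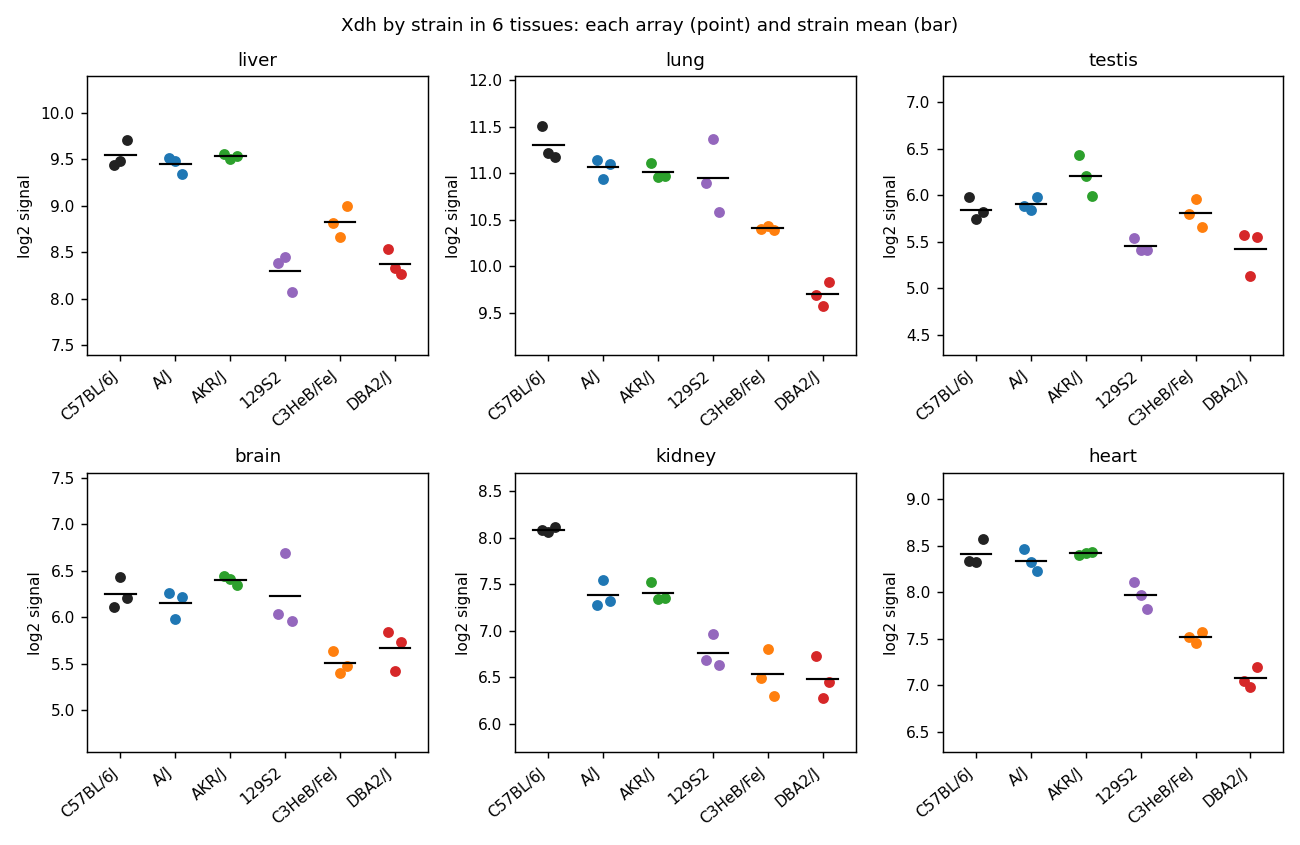
Xdh log2 signal on every array (points) and the strain mean (bar), in 1 panel for each tissue with its own axis. DBA2/J lies below every other strain in heart and lung, C57BL/6J lies above every other strain in kidney (8.06 to 8.11), and 129S2 is the lowest strain in liver (mean 8.30).

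Mocos, the sulfurase that activates the cofactor of Xdh and the aldehyde oxidases, passed in liver and kidney, with smaller strain differences than Aox3 and Xdh. In liver its distance between the highest and the lowest strain mean was wider than that of 77.7% of all genes. Liver Mocos read 9.28, 9.34 and 9.36 in C57BL/6J, 9.14, 9.20 and 9.28 in DBA2/J, and 9.00, 9.20 and 9.35 in AKR/J. C3HeB/FeJ livers read 9.04, 9.17 and 9.20, 129S2 livers 8.97, 8.97 and 9.05, and A/J livers 8.72, 8.93 and 8.94. The A/J arrays lay below all others, and C57BL/6J exceeded A/J by 0.46 (1.38-fold; adjusted p of the F test = 0.00448), with no step between neighbours that passed. DBA2/J, the lowest strain for Aox3, was thus the second highest of the 6 for liver Mocos. Kidney Mocos averaged 7.95 ± 0.0626 in DBA2/J and 7.64 ± 0.113 in AKR/J (SD, n = 3 each; difference 0.31, adjusted p = 0.0115). In brain, heart, lung and testis the F test did not pass (adjusted p = 0.827, 0.275, 0.21 and 0.772); in lung it passed without C3HeB/FeJ array 2 (adjusted p = 0.0226), the strain whose array 3 read 8.95 for Mocos, the highest lung value.

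Suox, the mitochondrial sulfite oxidase gene, passed in kidney, liver and lung with differences under 0.50. Kidney Suox read 10.10, 10.10 and 10.20 in 129S2 and 9.95, 10.03 and 10.13 in A/J, and these 2 strains overlapped each other and exceeded the other 4. The other 4 read 9.68, 9.68 and 9.91 in C3HeB/FeJ, 9.68, 9.77 and 9.79 in DBA2/J, 9.53, 9.71 and 9.78 in C57BL/6J, and 9.56, 9.70 and 9.70 in AKR/J. The step from A/J to C3HeB/FeJ was 0.28 (adjusted p = 0.0187), and 129S2 exceeded AKR/J by 0.48 (1.4-fold; adjusted p of the F test = 0.000162). Liver Suox averaged 10.75 ± 0.0634 in DBA2/J, 10.71 ± 0.127 in 129S2, 10.63 ± 0.034 in A/J, 10.57 ± 0.0409 in AKR/J, 10.44 ± 0.103 in C3HeB/FeJ and 10.33 ± 0.0446 in C57BL/6J (SD, n = 3 each; highest minus lowest 0.42, adjusted p = 0.00113). No step between neighbours in the liver order passed.

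Lung Suox averaged 8.52 ± 0.085 in DBA2/J and 8.19 ± 0.0221 in C57BL/6J (SD, n = 3 each; difference 0.33, adjusted p = 0.0348), and this call was lost when arrays were scaled to 1 median (adjusted p = 0.0511) and without any 1 of 10 of the 18 lung arrays (adjusted p up to 0.0816). Brain, heart and testis Suox did not pass (adjusted p = 0.0947, 0.621 and 0.163). In heart, 129S2 had an SD of 0.562 because array 2 read 6.84, and in testis A/J had an SD of 0.41; without A/J array 3 the testis test passed (adjusted p = 0.0156).

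**Figure D5:**
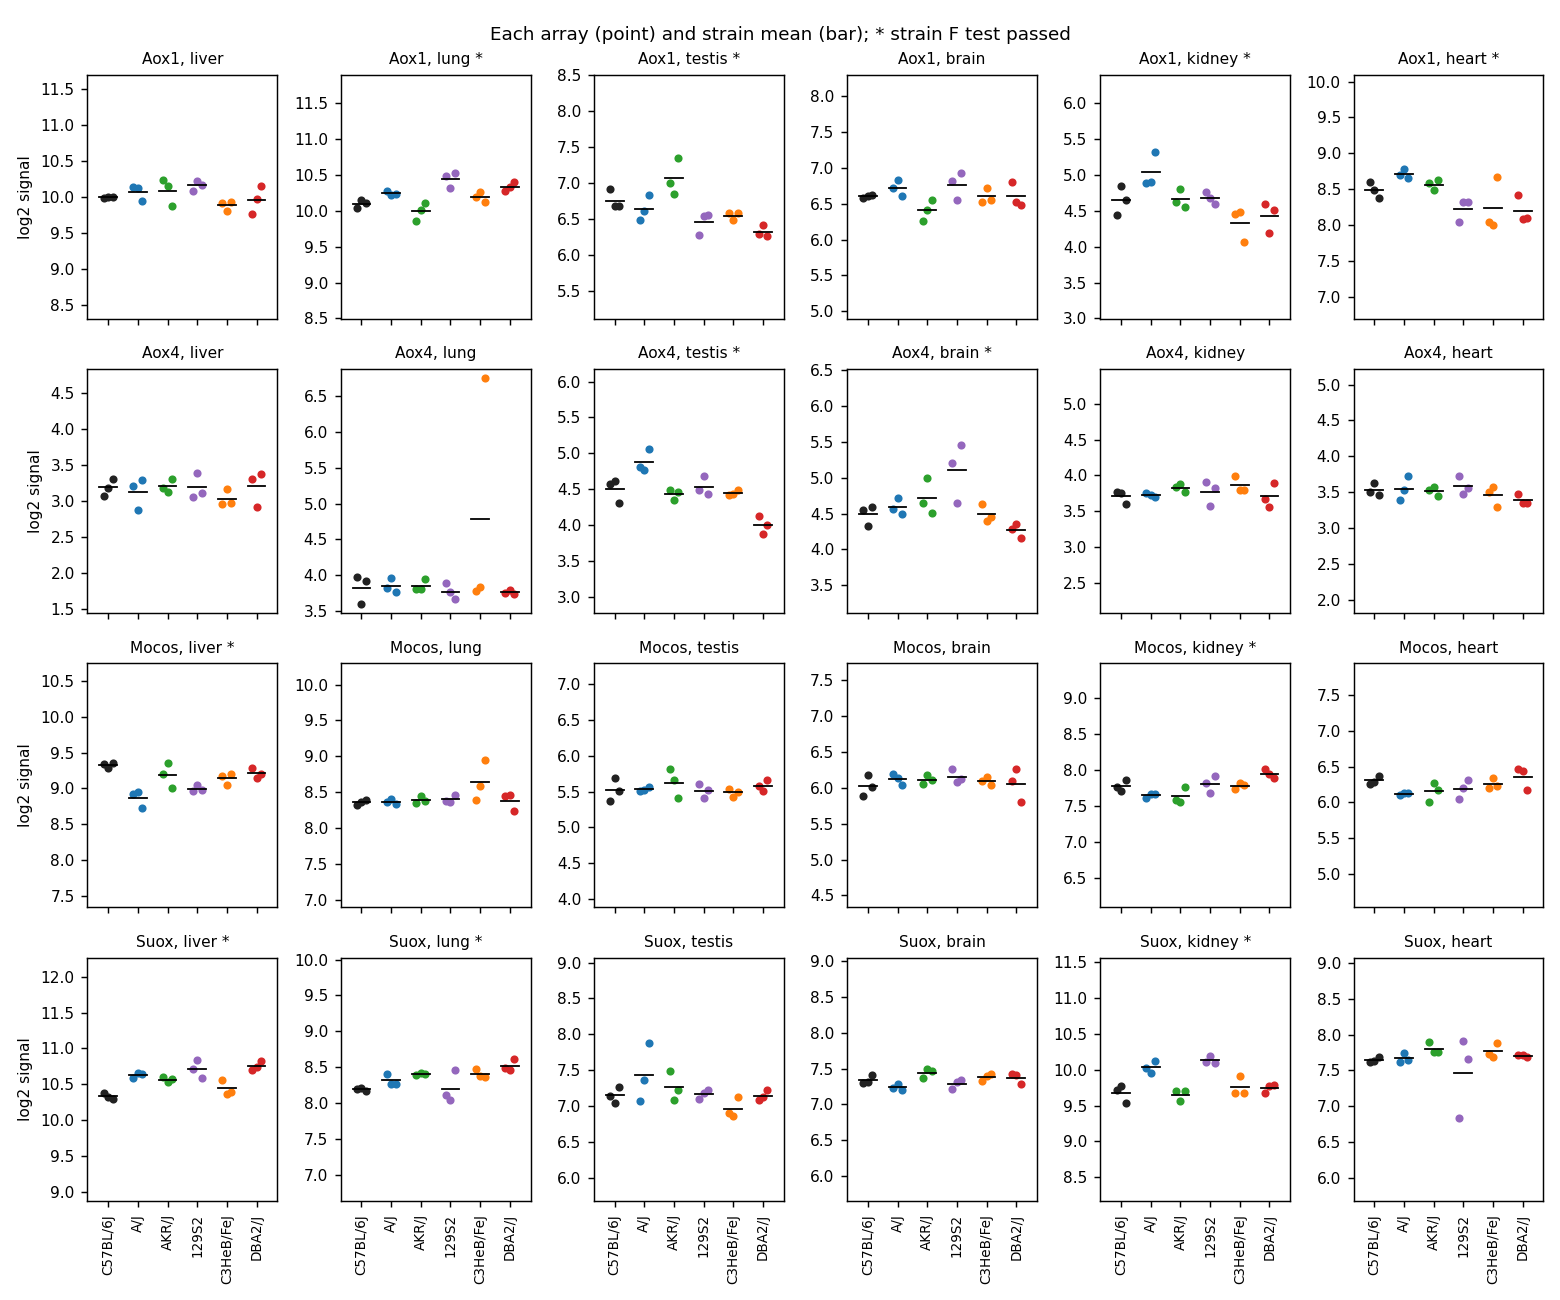
Log2 signal of Aox1, Aox4, Mocos and Suox (rows) on every array (points) with the strain mean (bar), by tissue (columns), each panel with its own axis; a star marks an adjusted p under 0.05. The single high C3HeB/FeJ array of Aox4 in lung (6.75) and the DBA2/J testes below all others for Aox4 (3.88 to 4.12) can be seen.

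A test of whether strain differences depended on tissue, with 25 interaction contrasts in 1 fit over all arrays, passed for 5 of the 6 genes, against 72.4% of all genes. For Aox3 (adjusted p = 1.96e-20) the highest minus lowest strain mean ran from 0.44 in kidney and heart to 2.38 in liver. For Xdh (1.31e-12) it ran from 0.79 in testis to 1.60 in lung and kidney, with another lowest strain in liver and brain than in the other 4 tissues. For Aox1 (1.27e-06) the top strain was 129S2 in brain, liver and lung, A/J in heart and kidney, and AKR/J in testis. Suox (0.000206) and Mocos (0.00419) also passed. Aox4 did not (adjusted p = 0.0557), and passed without the C3HeB/FeJ lung array 3 (6.07e-05). Aox3 had a mean log2 signal of 4.20 in kidney and 3.91 in heart, and the part of low signal was not tested. The C57BL/6J kidneys, livers and testes came from other animals than the brains, hearts and lungs, and their part was not tested.

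The genes whose signal followed each member most closely over the 18 arrays of the tissue in which its strain means lay farthest apart are given as a description; the arrays share strain groups, which raises any correlation. Liver Aox3 was followed by Sat2 (Pearson r = 0.990), Mapk1ip1l (0.975) and Mpdu1 (0.953), none of which lies on chromosome 1. Lung Xdh was followed by Nr1d2 (0.938), Cry2 (0.909) and Shc1 (0.909). Testis Aox1 was followed by Ctsh (0.924), Selenop (0.923) and Aldh2 (0.920), and testis Aox4 by Coq8a (0.885), Lsr (0.861) and Prom1 (0.852). For Aox4 the testis was used because its lung range rested on 1 array. Liver Mocos was followed by Orm1 (0.866), Prkar2a (0.857) and Spats2 (0.850), and kidney Suox by Eci1 (0.950), Acad10 (0.923) and Kdm2b (0.894). Between members, r was 0.866 for Aox3 and Xdh in lung, where DBA2/J was lowest for both, and −0.723 for Xdh and Suox in lung.

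Genes that make or insert the molybdenum cofactor (Mocs1, Mocs2, Mocs3, Gphn and Nfs1) passed the strain test in 2 of 5 cases in liver, 2 in lung, 4 in testis, 0 in brain, 5 in kidney and 1 in heart. Over all genes the shares were 31.6% in liver, 32.5% in lung, 40.5% in testis, 23.1% in brain, 46.1% in kidney and 21.0% in heart. Heart Mocs2, a subunit gene of molybdopterin synthase, averaged 9.85 ± 0.105 in A/J and 9.12 ± 0.0731 in C57BL/6J (SD, n = 3 each; adjusted p = 0.000182). Of the 4 genes of the amidoxime reducing system, the other molybdenum enzymes of mitochondria with their electron donors, 2 passed in brain, heart, kidney and lung, and 3 in liver and testis. Kidney Cyb5r3, a cytochrome b5 reductase, averaged 11.67 ± 0.0365 in DBA2/J and 10.50 ± 0.168 in C3HeB/FeJ (adjusted p = 2.61e-09). The F test has no direction, so these counts say only that strains differed. These lists and those below were chosen with earlier results of these data known. In kidney the median distance between the highest and the lowest strain mean was 0.38 over the cofactor genes and 0.26 over the amidoxime reducing genes, against 0.28 over all genes; in liver it was 0.35 and 0.52, against 0.26.

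Around Xdh, 8 of 15 measured purine genes passed in liver, 5 in lung, 9 in testis, 4 in brain, 12 in kidney and 4 in heart. The shares over all genes were 31.6%, 32.5%, 40.5%, 23.1%, 46.1% and 21.0% in the same order of tissues. The widest of them in kidney was Nt5e, at 11.45 ± 0.234 in DBA2/J and 9.73 ± 0.267 in 129S2 (SD, n = 3 each, adjusted p of the F test = 9.87e-08). Kidney Gda, guanine deaminase, which supplies xanthine, averaged 7.72 ± 0.229 in C57BL/6J and 6.43 ± 0.0814 in C3HeB/FeJ (adjusted p of the F test = 1.1e-07). Liver Nt5e, an ectonucleotidase, averaged 8.20 ± 0.225 in A/J and 5.74 ± 0.258 in C57BL/6J (adjusted p = 0.000185). Testis Allc, allantoicase, averaged 12.69 ± 0.0535 in DBA2/J, against 10.31 ± 0.159 in AKR/J (adjusted p = 1.49e-14). The highest strain was thus not the same one throughout these cases. The median distance over the purine genes was 0.62 in kidney and 0.39 in liver, against 0.28 and 0.26 over all genes.

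Around Suox, 8 of 15 genes of cysteine and sulfite metabolism passed in liver, 6 in lung, 9 in testis, 7 in brain, 12 in kidney and 4 in heart. In the same order of tissues, 31.6%, 32.5%, 40.5%, 23.1%, 46.1% and 21.0% of all genes passed. Liver Slc26a1, a sulfate transporter, averaged 9.39 ± 0.243 in C3HeB/FeJ and 6.01 ± 0.143 in AKR/J (SD, n = 3 each; adjusted p = 2.36e-12), and kidney Slc26a1 had the same highest and lowest strain, at 9.50 ± 0.091 and 6.68 ± 0.137 (adjusted p = 4.82e-11). Kidney Ethe1, the persulfide dioxygenase that makes sulfite, averaged 11.91 ± 0.116 in DBA2/J and 10.13 ± 0.0915 in C3HeB/FeJ (adjusted p = 5.74e-10). These list genes were picked for the widest ranges among those that passed, so they are not set against Suox. Suox ranged over 0.48 in kidney and 0.42 in liver. The median distance over these 15 genes was 0.67 in kidney and 0.62 in liver, against 0.28 and 0.26 over all genes.

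Of 16 measured genes of retinaldehyde and aldehyde metabolism, 9 passed in liver, 6 in lung, 12 in testis, 5 in brain, 13 in kidney and 2 in heart. All-gene shares were 31.6% in liver, 32.5% in lung, 40.5% in testis, 23.1% in brain, 46.1% in kidney and 21.0% in heart. Kidney Aldh1a1, a retinaldehyde dehydrogenase, averaged 11.02 ± 0.192 in A/J and 7.03 ± 0.0454 in C57BL/6J (SD, n = 3 each; adjusted p = 1.38e-14). Testis Aldh1a1 averaged 13.21 ± 0.0572 in AKR/J, against 11.14 ± 0.052 in DBA2/J (adjusted p = 1.08e-12), the same highest and lowest strain as testis Aox1. Of 4 measured genes around nicotinamide, whose methylated forms aldehyde oxidases oxidise, 1 passed in brain and heart, 3 in kidney, and 2 in liver, lung and testis. Liver Nnmt, nicotinamide N-methyltransferase, averaged 11.29 ± 0.46 in C57BL/6J and 6.09 ± 0.958 in C3HeB/FeJ (adjusted p = 9.86e-09). The median distance was 0.50 in kidney and 0.32 in liver over the aldehyde genes, and 0.42 and 0.58 over the nicotinamide genes. Over all genes it was 0.28 in kidney and 0.26 in liver.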

How the data were processed

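RNA from whole tissues was hybridised to Affymetrix arrays, and the authors deposited 1 table of log2 values made with RMA, per the submitters' processing notes; the RMA version and whether tissues were normalized together are not given in the sources used here. Of 45101 probe sets, 64 were controls, 932 matched several genes and 9160 none; these were dropped. The 34945 with a single gene gave 18193 genes, each by its brightest probe set over all arrays. Groups came from the labels. On 4 arrays (129S2: 3 of brain and 1 of kidney) the animal number differed between title and source name; strain and tissue did not. No filter on dim genes was applied.

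Strain means were tested with limma 3.58.1 (R 4.3.3) by a moderated F test per tissue and pairwise contrasts, Benjamini-Hochberg adjusted. Arrays of 1 animal were a random block in the interaction fit (duplicateCorrelation on 4000 genes, correlation 0.0174). Scripts were tested on simulated data. The number of arrays, 3 a group, limits the precision. All 6 genes were named in all tissues, with the 3 genes most like each, 5 neighbours on either side of the cluster, and up to 2 genes a list and tissue. The list genes were picked for the widest range of strain means among those that passed. The genes and lists were chosen with earlier results of these data known. Alternatives tried were a trended robust prior, a filter on dim genes, scaling to 1 median, the mean of all probe sets, every probe set, the animal block, leaving out testis or single arrays, and, chosen after seeing the data, leaving out both unlike brain arrays.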

Additional observations from a re-analysis of the deposited data

Results flagged for a closer look

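For 5 of the 6 genes the strain differences depended on the tissue, by the interaction test over all arrays. The adjusted p was 1.96e-20 for Aox3, 1.31e-12 for Xdh, 1.27e-06 for Aox1, 0.000206 for Suox and 0.00419 for Mocos. Of all genes, 72.4% passed the same test, so passing it does not set these genes apart. The part of low signals and of the C57BL/6J animal sets was not tested.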

How the results depend on the processing

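Across the alternatives no difference between the highest and the lowest strain reversed, and Aox3 and Xdh kept their calls, where tested, in liver, lung, testis and brain, and Xdh also in heart and kidney. With only genes of a mean log2 of at least 6, the members below that level drop out by construction. Then 1 of 4 tested genes passed in brain, 3 of 3 in kidney and 2 of 3 in testis. Called pairs numbered 10 in brain and 12 in testis. Of all genes kept by this filter, 4451 passed in brain, 7650 in kidney and 6774 in testis. Leaving out each array in turn, the number of the 6 genes that passed ranged from 2 to 4 in brain, 1 to 3 in heart, 4 to 5 in kidney, 3 to 5 in lung and 4 to 5 in testis, and was 4 in liver throughout. In heart it was 1 without any 1 of 14 arrays, through Aox1. Called pairs ranged from 14 to 22 in brain, 11 to 18 in heart, 22 to 27 in kidney, 28 to 32 in liver, 18 to 29 in lung and 24 to 31 in testis. Shares over all genes are not given for these single omissions. Aox3 in liver ranged from 2.35 to 2.40 over these omissions. Without both unlike brain arrays 3 genes and 19 pairs passed in brain. Of single-gene results, 29 lost and 5 gained a call, and 865 did neither. Animals share only a number across strains (mean correlation of same-numbered deviations −0.0138 to 0.104); with the replicate block 3, 2, 5, 4, 4 and 4 genes passed in brain, heart, kidney, liver, lung and testis, and liver pairs numbered 31. Without the block the interaction test passed for 5 genes, and for 6 without the C3HeB/FeJ lung array 3. Signals were not tested against background, which limits Aox4 everywhere, Aox3 in brain, heart and kidney, Aox1 in kidney, and Xdh and Mocos in testis.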
